A study of Arabidopsis thaliana with 8 samples.

Results

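The floral organ identity MADS-box genes of Arabidopsis encode the transcription factors that decide which organ forms in each whorl of the flower. The 10 genes described, of 27444 protein-coding genes, are AP3 (AT3G54340) and PI (AT5G20240) of class B, AG (AT4G18960) of class C, SHP1 (AT3G58780), SHP2 (AT2G42830) and STK (AT4G09960) of class D, and SEP1 (AT5G15800), SEP2 (AT3G02310), SEP3 (AT1G24260) and SEP4 (AT2G03710) of class E. Their windows of 7 plant ALOG proteins were collected. A window counted for a gene when its centre was inside the gene or no more than 2000 bp outside. By this rule the genes held 74 of the 116684 windows in the 7 lists. All 10 carry in the gene table the symbol they are called by here.

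The proteins, each carrying a tag and made by transcription and translation in vitro, were incubated with amplified DNA fragments from Arabidopsis seedlings 2 weeks old in ampDAP-seq, an assay that sequences the fragments a protein retains. Of the 8 samples, the input without a list was not analysed here. As background knowledge, 3 of them (LSH1, LSH2 and LSH3) are Arabidopsis proteins, LOS1 and LOS2 are proteins of the liverwort Marchantia, TMF is a tomato protein and G1 a rice protein. All lists share the same kind of bare, amplified DNA, so they describe what a protein made in vitro can retain without chromatin, methylation or partner proteins. A window says nothing of whether a gene is regulated.

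In the ABCE model of the flower, class B genes give petals and stamens, the class C gene gives stamens and carpels, class D genes act in ovules and fruits, and class E genes are needed by all the others as partners. Their proteins bind DNA in complexes through the MADS domain. LFY, with its partner UFO, activates AP3, and corepressors and Polycomb proteins keep AG silent outside the inner whorls. ALOG proteins act in meristems, organ boundaries and flowers, and rice G1 is known for its role in the identity of the sterile lemma.

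Each protein has 1 list, in which, per the series' text, peaks common to 3 replicates were kept. Replicate error is therefore unknown, and no list was tested against another. The lists hold from 6902 windows for G1 to 29555 for LOS2. They give positions only, with no height or read count, so the depth is unknown. The 95% intervals below cover counting error only, and they are too narrow wherever windows of several proteins fall on the same place. Positions are those of the deposited windows, counted from 1. The sources used here name no genome build, and gene positions came from assembly TAIR10.1 without strand. A flank is therefore called lower or higher by coordinate, and start and end of a gene were not told apart.

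Every one of the 10 genes had a window of at least 1 protein, against 86.6% of all protein-coding genes. The number of windows differed widely, however. SEP2 had 18 windows, SHP1 had 15 and AP3 had 13, whereas SHP2 had 7, AG and SEP1 had 6 each, SEP3 and SEP4 had 3 each, STK had 2 and PI had 1. The median was 6 windows per gene, and it was also 6 over all protein-coding genes. The median number of proteins was 4.5 for the 10 genes and 5 over all protein-coding genes. AP3 and SEP2 alone among the 10 had windows of all 7 proteins, against 22.6% of all protein-coding genes and 28.4% of the 11802 protein-coding genes whose length lies in the range of the 10 (2175 to 5684 bp). A share of 2 in 10 is near both.

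**Figure D1:**
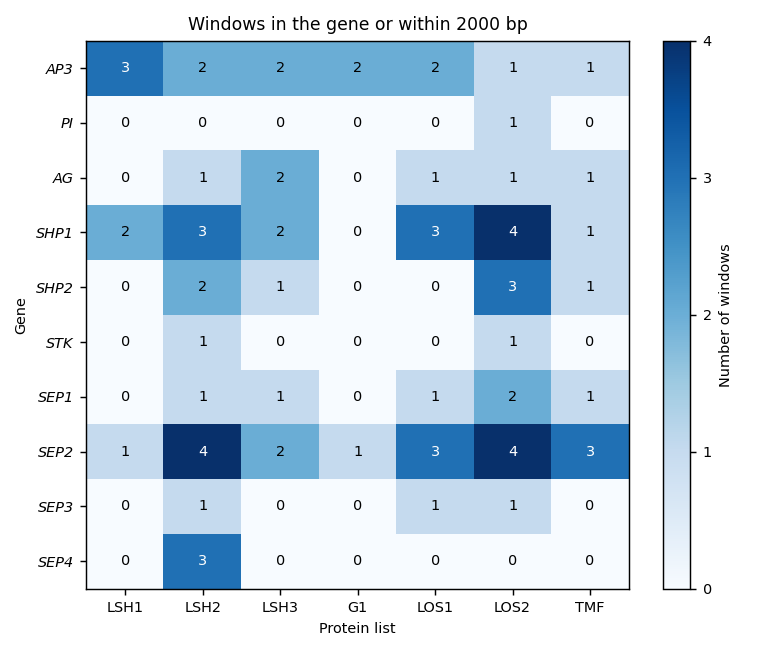
Number of windows of each protein list (columns) at each of the 10 genes, flanks of 2000 bp included (rows), with the count written in each cell. AP3 and SEP2 are filled in all 7 columns, PI and SEP4 in 1, and the LSH2 and LOS2 columns are filled for 9 genes each.

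Windows that overlap, whatever their list, were joined into regions, which gave 24 regions at the 10 genes. Of these, 7 lay in the gene bodies and 17 in the flanks.

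Among the class B genes, AP3 and PI differed widely. Their proteins work together as a heterodimer. AP3 had 1 window each of TMF and LOS2, 2 each of LOS1, G1, LSH3 and LSH2, and 3 of LSH1. PI had 1 window of LOS2 and none of the other 6 proteins. The 2 genes thus shared 1 protein of 7.

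The only region of all 7 proteins at the 10 genes lay in the body of AP3, at its midpoint (50.0% of the gene from the lower end), on chromosome 3 at 20120123 to 20120339. The starts of its 7 windows lay within 17 bp, where the median over all regions with 1 window of each of 7 proteins was 22 bp. The flanks of AP3 held different combinations. On the lower side, LSH1, LSH3 and LOS1 shared a region at 20117935 to 20118193, about 1064 bp from AP3. This combination was rare, with 11 of the 39850 regions of the series. It was also the loosest of the regions with 1 window per protein at the 10 genes, with starts spread over 59 bp. On the higher side, LSH1, LSH2 and G1 shared a region at 20122760 to 20122996, about 1548 bp away. Both flank regions lie inside neighbouring genes. The lower is in WRI1, which encodes an activator of seed oil synthesis, and the higher is in emb1967, a gene known from an embryo-defective mutant.

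At PI, the only window, of LOS2, stood inside the gene on chromosome 5, at 6830580 to 6830779. No window of any protein lay within 3000 bp outside PI. Windows of LOS2 and of no other protein were found at 2417 protein-coding genes, 8.81% of all.

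AG, the class C gene, is known for a large intron that carries much of its regulatory sequence. At 5684 bp it is the longest of the 10, yet no window of any protein had its centre in the gene. All 6 of its windows formed 1 region about 1304 bp beyond its higher end, on chromosome 4 at 10389657 to 10390059. This region held 2 windows of LSH3 and 1 each of LSH2, LOS1, LOS2 and TMF, and it lies in the body of the neighbour AT4G18970. LSH1 and G1 had no window within 2000 bp of AG.

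STK, which acts in ovule identity and seed release, is the next longest gene at 4907 bp and likewise had no window in its body. Of the 1739 protein-coding genes at least as long as STK, 6.38% had no window of any protein in the body. AG and STK were 2 of those 111 genes. The length limit was set by STK itself, so this share is a description and not an independent comparison. STK had 1 region, about 796 bp from its higher end on chromosome 4 at 6241976 to 6242179, shared by LSH2 and LOS2. These are the proteins with the longest lists, and their starts were 4 bp apart.

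SHP1 and SHP2 are close paralogs that specify the valve margin where the fruit opens. SHP1 had windows of every protein but G1, with 4 of LOS2, 3 each of LSH2 and LOS1, 2 each of LSH1 and LSH3, and 1 of TMF. SHP2 had 3 windows of LOS2, 2 of LSH2, and 1 each of LSH3 and TMF. All 4 proteins of SHP2 were thus also at SHP1, and LSH1 and LOS1 were at SHP1 without a window within 2000 bp of SHP2. For LOS1 this rests on the limit, as a LOS1 window lay 2042.5 bp from SHP2.

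The 5 regions of SHP1 spread over the gene and both flanks. In the body, LSH1 alone had a window at 21739480 to 21739679 on chromosome 3, and LSH2, LSH3 and LOS2 shared a region at 21742178 to 21742412, close to the higher end of the gene (95.2% of its length). That part of SHP1 overlaps GAUT15, a gene of a pectin galacturonosyltransferase family. LOS1 and LOS2 alone shared a region about 456 bp beyond the higher end, at 21742870 to 21743076, also in GAUT15. LSH2, LOS1 and LOS2 shared one on the lower side at 21736167 to 21736379. The widest region of the 24, 485 bp at 21744312 to 21744796, lay in GAUT15 across the 2000 bp limit. It held 9 windows of 6 proteins, of which 6 windows counted for SHP1.

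At SHP2, LSH2 and LOS2 shared a region in the body, on chromosome 2 at 17822446 to 17822650. The 4 proteins LSH2, LSH3, LOS2 and TMF shared one about 496 bp beyond the higher end, at 17824404 to 17824613. The LOS1 and LOS2 region at SHP1 lay about 456 bp beyond the higher end of SHP1. Without strand, the higher ends of these genes may not correspond. The proteins in the 2 regions differed except for LOS2. At 17825907 to 17826155, SHP2 had a region of which only the LOS2 window was inside the limit.

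The class E genes SEP1, SEP2, SEP3 and SEP4 overlap in function, and their proteins bridge the complexes of the other classes. They ranged from 1 to 7 proteins. SEP2 had 4 windows each of LSH2 and LOS2, 3 each of LOS1 and TMF, 2 of LSH3, and 1 each of LSH1 and G1. SEP1, its closest paralog, had 2 windows of LOS2 and 1 each of LSH2, LSH3, LOS1 and TMF. SEP3 had 1 window each of LSH2, LOS1 and LOS2. In the gene or within 2000 bp, SEP4 had 3 windows of LSH2 and none of any other protein, a pattern found at 244 protein-coding genes (0.889%).

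SEP2 had windows of all 7 proteins without any region that held all 7. LSH1 and G1 entered through 1 region in the gene body, shared with LSH2 and TMF on chromosome 3 at 464513 to 464719, with starts within 7 bp. LSH3 and LOS1 were absent there and entered through the flanks. A region of LSH2, LSH3, LOS1, LOS2 and TMF touched the lower end of the gene at 464061 to 464279, and a region of the same 5 proteins lay at 468556 to 468773, about 1508 bp beyond the higher end. LOS2 alone had a window in the body at 465066 to 465265, and LSH2, LOS1 and LOS2 shared a region at 468955 to 469166.

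SEP1 had these same 5 proteins together in its lower flank, on chromosome 5 at 5149461 to 5149678. This region lies in the body of AT5G15790. A further LOS2 window stood alone about 290 bp beyond the higher end, at 5154444 to 5154643. SEP1 thus had the same set of proteins as AG, a set found at 1815 protein-coding genes (6.61%).

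The 3 windows of SEP3 lay almost on top of each other, with starts within 1 bp, about 952 bp below the gene on chromosome 1 at 8592484 to 8592684. They are in the body of the neighbour AT1G24256. At SEP4, LSH2 had a window on the lower side at 1128387 to 1128586 on chromosome 2 and a pair of overlapping windows on the higher side at 1133370 to 1133741.

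**Figure D2:**
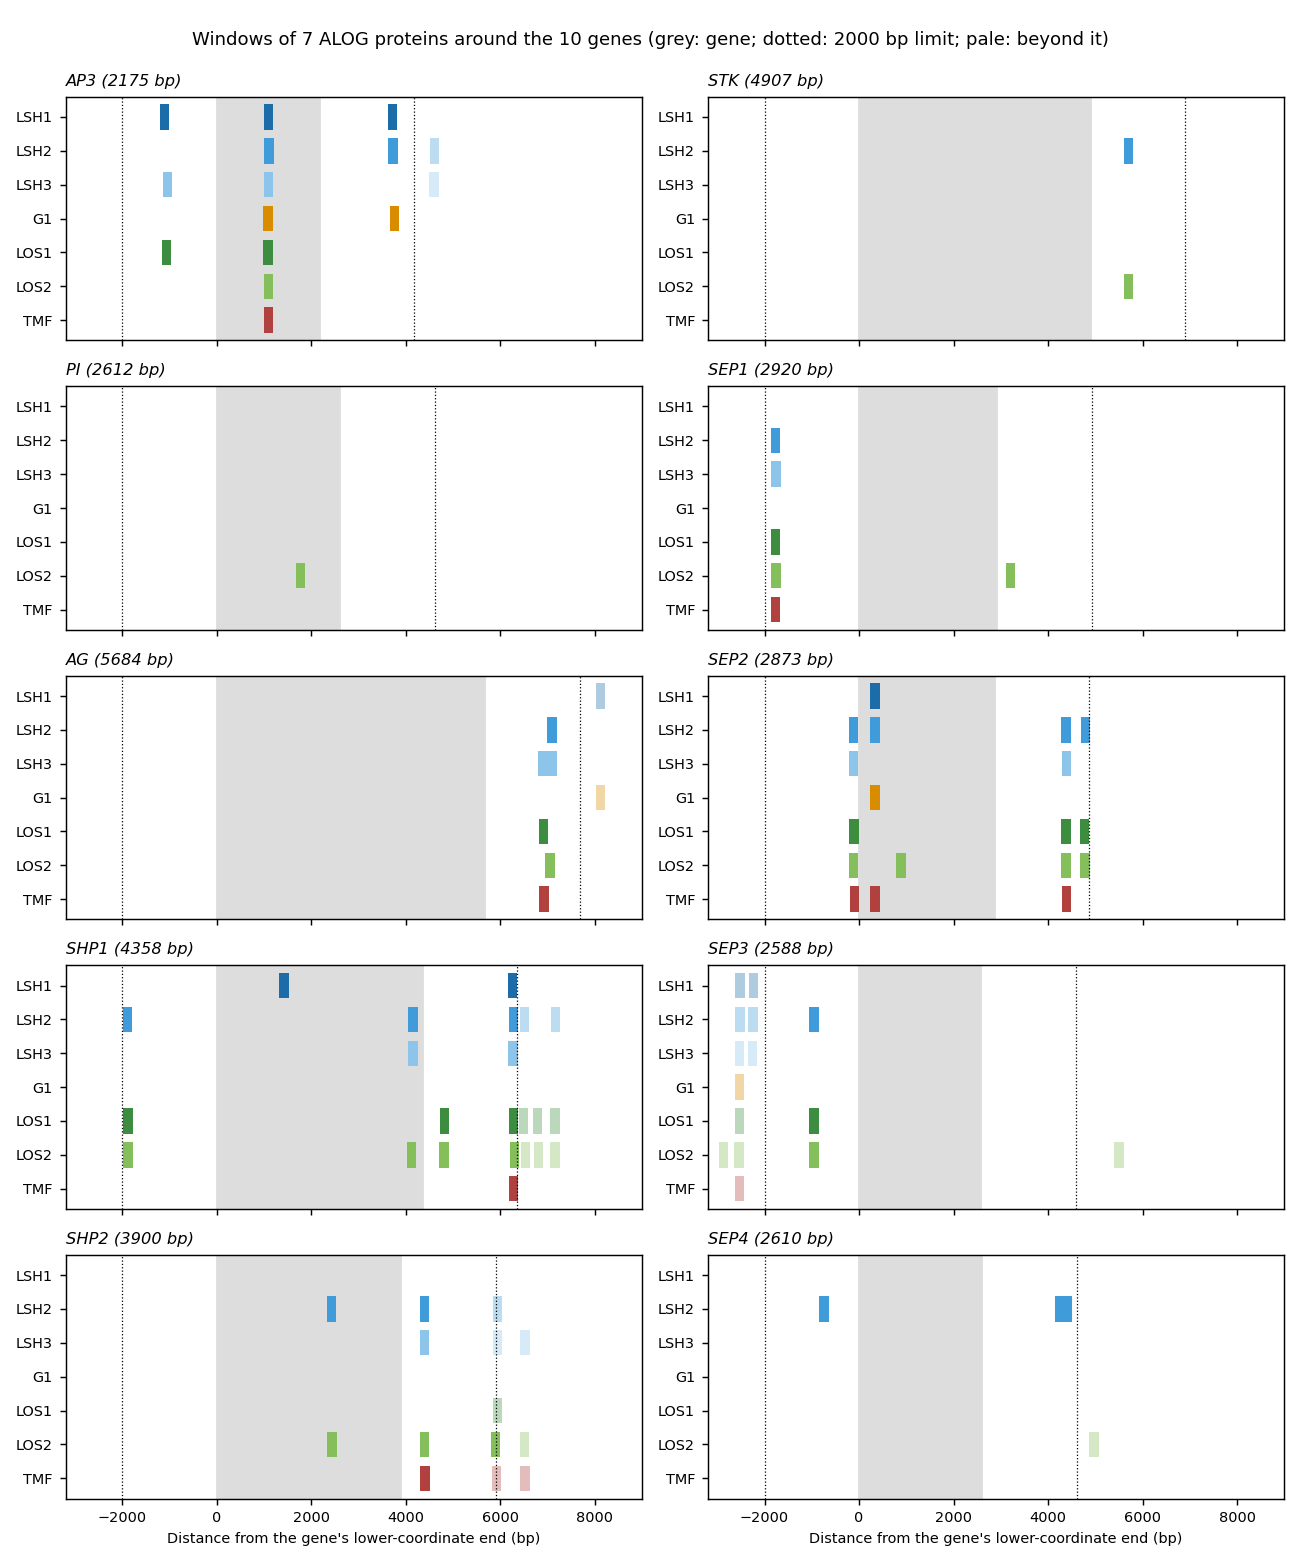
Windows of the 7 lists (rows, coloured by protein, 200 bp wide and to scale) around each of the 10 genes, by distance in bp from the lower-coordinate end of the gene. The grey band is the gene, dotted lines mark 2000 bp on either side, and pale windows have their centre beyond that limit. The AP3 body has a column of all 7 proteins, and the bodies of AG, STK, SEP1, SEP3 and SEP4 are empty.

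By protein, LSH2 and LOS2 had windows at 9 of the 10 genes each. LSH2 missed PI, and LOS2 missed SEP4, where its nearest window was about 2358 bp away. The background was 67.9% of protein-coding genes for LSH2 and 77.6% for LOS2. LSH3, LOS1 and TMF had windows at 6 genes each, against 59.7%, 53.6% and 52.8% of protein-coding genes, which is near the background. LSH3 and TMF were at the same 6 genes, AP3, AG, SHP1, SHP2, SEP1 and SEP2. LSH1 was at 3 genes, AP3, SHP1 and SEP2, against 53.3% of protein-coding genes, and G1 at 2, AP3 and SEP2, against 32.7%. Each of these backgrounds lies inside the 95% Wilson interval that counting alone gives a share of 10 genes. For LSH1 that interval ran from 10.8 to 60.3%, so 10 genes cannot set LSH1 apart.

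G1 had 3 windows in all, and each shared its region with an LSH1 and an LSH2 window. How often G1 shares a region with both over the whole series is not given here. G1 had a window in the gene body at 2 of the 10 genes, against 16.7% of all protein-coding genes, LSH1 at 3, against 29.3%, and LOS1 at 1, AP3, against 26.9%. By windows, 2 of 3 of G1 and 3 of 6 of LSH1 lay in the body, against 46.5% and 46.2% of their windows counted the same way over all protein-coding genes. For LOS1 it was 1 of 11, or 9.09% (95% Wilson interval 1.62 to 37.7%), against 43.1%. The share was also below the background for LSH3, with 2 of 10 against 45.5%, and LSH2, with 4 of 18 against 42.4%. The same held for TMF, with 2 of 8 against 44.5%, and LOS2, with 5 of 18 against 41.4%. A low body share was thus not particular to LOS1. Only for LOS1 did the background lie outside the interval, which stacked windows make too narrow.

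**Figure D3:**
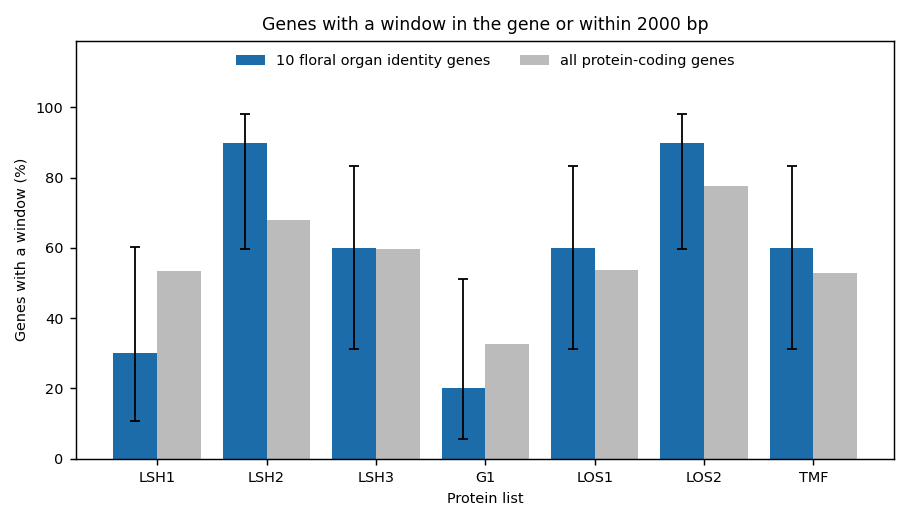
Share of genes with a window of each list in the gene or within 2000 bp, for the 10 floral organ identity genes (blue, with 95% Wilson intervals for counting error) and all 27444 protein-coding genes (grey). LSH2 and LOS2 reached 90% of the 10 genes, LSH1 30% and G1 20%, and every interval spans the grey value beside it.

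Of the 24 regions, 6 were held by 1 protein, 3 by LOS2, 2 by LSH2 and 1 by LSH1. The share held by 1 protein was 25.0%, against 40.4% of all 39850 regions. Regions of 5 or more proteins numbered 7, or 29.2%, against 26.1% of all regions. The most frequent combination was LSH2, LSH3, LOS1, LOS2 and TMF, with 5 regions, against 7.23% of all regions. It stood at AG, at SEP1, on both sides of SEP2 and beyond SHP2, where only its LOS2 window was inside the limit. The combination of LSH2, LOS1 and LOS2 came next among shared regions, with 3, at SHP1, SEP2 and SEP3, against 2.56% of all regions. LSH2 and LOS2 shared 14 regions, LOS1 and LOS2 11, and LSH2 and LSH3 9. In 5 regions an LSH protein was present without LOS1 or LOS2, and in 4 the reverse held. These shared and unshared counts are given without a share over all regions, and LSH2 and LOS2 have the longest lists. They only describe these regions. Each count takes a region with all its proteins, so the SHP2 region entered also through windows beyond the limit. The windows of 1 region were closely stacked. In the 16 regions with 1 window from each of several proteins, the starts were spread over a median of 15 bp and a range of 1 to 59 bp. Over all such regions of the series, the median ran from 10 bp for 2 proteins to 22 bp for 7, so this stacking was ordinary.

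**Figure D4:**
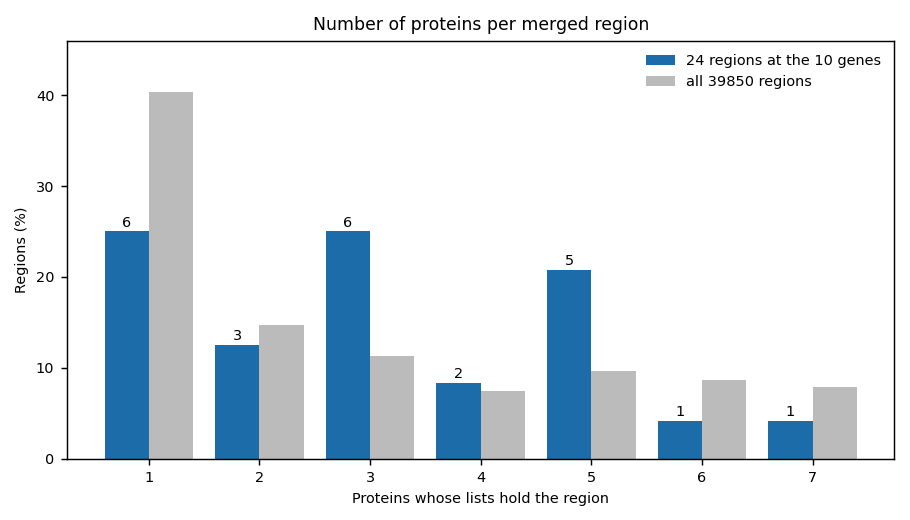
Share of merged regions by the number of proteins whose lists hold them, for the 24 regions at the 10 genes (blue, count above each bar) and all 39850 regions of the series (grey). Regions of 3 and of 5 proteins made up 25.0% and 20.8% at the 10 genes, against 11.3% and 9.66% of all, and regions of 7 proteins 4.17% against 7.84%.

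Windows lay mostly in the flanks of these genes rather than in their bodies. Of the 74 windows, 19 were in the body of the gene, 25.7% (95% Wilson interval 17.1 to 36.7%), where the same count over all protein-coding genes, each with its 2000 bp flanks, gave 43.7%. In genes of the same length range that share was 51.5%. These background shares count a window again for each gene it lies near. By window, 71.1% of all windows had their centre in a protein-coding gene. Stacked windows make the interval too narrow. By region, 7 of the 24 lay in the bodies. Body windows were found in 5 of the 10 genes, AP3 with 7, SEP2 with 5, SHP1 with 4, SHP2 with 2 and PI with 1, against 55.1% of all protein-coding genes and 75.0% of those in the length range. LOS2 had a body window in each of these 5 genes, a share of the 10 near its background of 43.1% of all protein-coding genes. In the lists described below, 3 of 7 other floral MADS-box genes and 12 of 20 regulators had a body window.

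Per kb and summed over the 7 lists, the bodies held 0.549 windows (95% Poisson interval 0.33 to 0.857), against 1.29 in all protein-coding genes. Within 1000 bp outside they held 0.9 (0.533 to 1.42), against 0.919. Between 1000 and 2000 bp outside they held 1.85 (1.3 to 2.55), against 1.06. Leaving out each gene in turn gave 0.37 (without AP3) to 0.656 (without AG) for the bodies and 1.56 (without SHP1) to 2.06 (without PI) for the outer flank. Because stacked windows are counted once per protein, the regions were also counted once each. The bodies then held 0.202 regions per kb (0.0813 to 0.417), against 0.431, and the outer flank 0.4 (0.173 to 0.788), against 0.364. Counted this way, the outer flank was not distinguishable from all genes, while the body value for all genes lay just above the interval. Leaving out single genes was not done for the regions, so how far this body contrast rests on any single gene is not known.

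**Figure D5:**
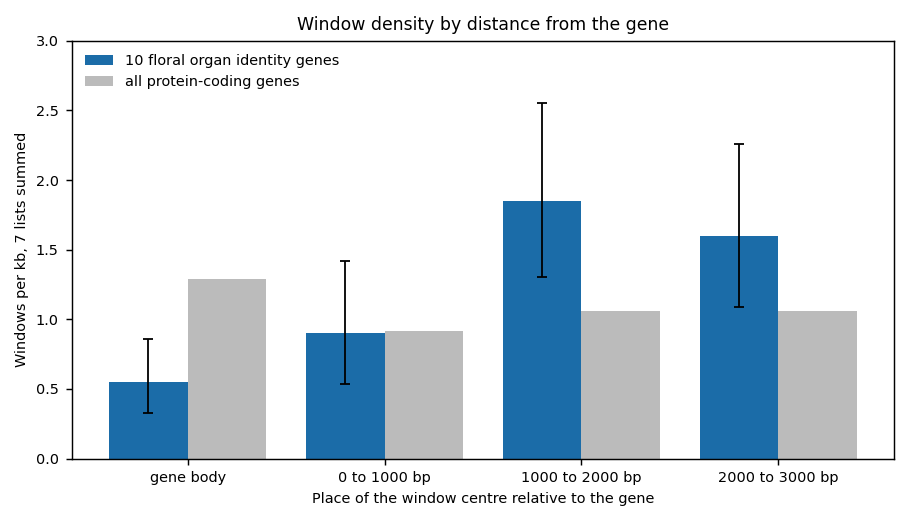
Windows per kb, summed over the 7 lists, in the gene body and in 3 steps of distance outside it, for the 10 floral organ identity genes (blue, with 95% Poisson intervals for counting error) and all protein-coding genes (grey). The body bar of the 10 genes is 0.549 against 1.29, and the bar at 1000 to 2000 bp is 1.85 against 1.06.

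Most of these windows also lay at a neighbouring gene. Of the 74 windows, 67, or 90.5% (95% Wilson interval 81.7 to 95.3%), lay in or within 2000 bp of another protein-coding gene as well, against 79.2% of windows counted the same way over all protein-coding genes. Of the 55 flank windows, 33, or 60.0%, had their centre inside the body of another gene, which is near the 64.9% over all protein-coding genes. At AP3, 10 of 13 windows were shared with WRI1 and 10 with emb1967. GAUT15 held 11 of the 15 windows of SHP1 in its own body, and AT4G18970 held all 6 of AG. SHP2 shared 5 of 7 windows with PDF1, a gene of the epidermis. Which of the genes a shared window bears on was not tested.

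The limit of 2000 bp decided several of these patterns. Just inside it were the LOS2 window of SHP2, 6 windows of the wide region at SHP1, and the region of LSH2, LOS1 and LOS2 at SEP2, about 1904 bp away. Just outside, SEP3 had a region of all 7 proteins about 2530 bp below the gene, on chromosome 1 at 8590900 to 8591114, and next to it a region of LSH1, LSH2 and LSH3 at 8591186 to 8591400. AG had a region of LSH1 and G1 about 2432 bp beyond its higher end, at 10390869 to 10391072, which it lacked inside the limit. The remaining LSH2, LSH3, LOS1 and TMF windows of the SHP2 region at 17825907 to 17826155 were also just outside. So was a LOS2 window about 2358 bp beyond the higher end of SEP4, at 1134097 to 1134296. With a limit of 3000 bp, AP3, AG, SEP2 and SEP3 had windows of all 7 proteins, while PI and STK gained no window. LOS2 then had windows at all 10 genes.

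Further lists place the 10 genes among their relatives and regulators. Of 7 other floral MADS-box genes, AP1, CAL and FUL (AGL8 in the gene table), which act in floral meristem and fruit identity, had windows of all 7 proteins, against 22.6% of all protein-coding genes. AGL6, a close relative of the SEP genes, and GOA, which acts in fruit growth, had none. AGL13, the paralog of AGL6, had 1 region of the set LSH2, LSH3, LOS1, LOS2 and TMF, as AG and SEP1 did.

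Of 20 regulators of the organ identity genes, LFY, LUG, SEU, HUA2 and BLR (RPL in the gene table) had windows of all 7 proteins. That share of 25.0% is near the 22.6% of all protein-coding genes. LUG and SEU are corepressors of AG, BLR is a repressor of AG, and HUA2 acts in the processing of AG RNA. SEU had the most of these, with 31 windows in 9 regions, and LFY had 21 windows in 5 regions. UFO, CRC, SPL, HUA1, HEN4, CLF and ULT1 had the set of SHP1, every protein but G1, which 12.9% of all protein-coding genes had. JAG and WUS had the set of AG and SEP1. SUP, which keeps stamen identity out of the carpel whorl, had no window. The median gene had 6 windows among the 10 organ identity genes and 9 among the regulators, with median lengths of 2896.5 and 2779 bp.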

How the data were processed

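Each of the 7 deposited lists gives chromosome, start and end of windows that are all 200 bp wide. They hold positions and no measured value, per the files' contents. The submitters' processing notes name MACS2, Bowtie2 and SAMtools, with no version. Settings, thresholds and the genome build were not given in these sources. Per the series' design text, peaks found in each of 3 replicates were kept.

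Genes came from a RefSeq table of TAIR10.1. Of all windows, 71.1% had their centre in a protein-coding gene, and 67.4% after a shift of 1000 bp either way. A window counted for a gene by its centre, and windows overlapping by at least 1 bp were merged into regions. Shares have 95% Wilson intervals and densities exact Poisson intervals. No test was made, as there is 1 list per protein. The code was tested on simulated lists, where all planted counts were recovered. Work was done in Python 3.11.15 with scipy 1.17.1, pandas 2.3.3 and numpy 2.4.6. All 10 genes are named. Other genes were named where at least 2 proteins had windows and the set matched that of one of the 10, or where all or no proteins had windows. The genes and lists were chosen with earlier results of these data known. The planned search of promoters for a short sequence needs DNA sequence and was not run.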

Additional observations from a re-analysis of the deposited data

How the results depend on the processing

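The counts followed the interval around the gene. Over all 78 alternatives, 57 left a count within 1.5 times, or a share or density within its counting interval, and 21 did not. These include leaving out a list, which can only keep or raise the count of genes or regions that hold all remaining proteins. With flanks of 1000 bp, the 10 genes held 37 windows in 14 regions, TMF had windows at 3 genes, 51.4% of windows were in the gene body, and the density was 0.677 windows per kb. With flanks of 3000 bp, 4 genes had windows of all 7 proteins, 2 regions held all 7, LSH1 reached 5 genes and G1 4. In the gene body alone there were 19 windows in 7 regions, at 5 genes, with 1 gene having all 7 proteins. LSH2 was then at 4 genes, LSH3 at 2, LOS1 at 1, LOS2 at 5 and TMF at 2, and the density was 0.549 windows per kb. These changes come from the interval itself. Without the G1 list, 2 regions held all of the other 6 proteins, and without SEP1 to SEP4, 1 gene had windows of all 7. Counting any overlap, merging at 100 bp and leaving out any other list moved no count by over 1.5 times. Leaving out each gene in turn was chosen after seeing the data. The promoter search was not run. No paired analysis was possible because each protein has 1 list. With no heights or reads, weak and strong windows could not be told apart, and a missing window may be a matter of the depth of its list, which is unknown.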

Other observations

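Windows of 1 protein were doubled within a region at 3 of the 24 regions, against 2.59% of all regions of the series. In the region beyond AG, LSH3 had windows starting at 10389657 and at 10389860, and the LOS2 and LSH2 windows started at 10389809 and 10389851, nearer to the higher LSH3 window, whereas those of LOS1 and TMF started at 10389664 and 10389678, nearer to the lower one. In the wide region at SHP1, LSH2, LOS1 and LOS2 each had 2 windows, while LSH1, LSH3 and TMF had 1 each in the lower part. At SEP4, the doubled windows were both of LSH2, and no other protein shared the region. These cases were noticed in the data and were not tested.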
